A study of Homo sapiens with 6 samples.

Results

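The GADD45 genes encode small acidic stress proteins, and the members described here are GADD45A, GADD45B, GADD45G and GADD45GIP1, the gene of a protein first found by its binding to GADD45G. They were taken by their gene symbols and are 4 of the 26255 genes listed in the processed files. The study sequenced mRNA from 22RV1, a human castration-resistant prostate cancer (CRPC) cell line. There were 3 samples given the vehicle DMSO and 3 given 10 nM bruceantin (BCT), a quassinoid, each for 24 h in full medium with fetal bovine serum. The labels name no genetic change in either group and do not say whether the samples of a group came from separate cultures, so p-values measure the spread between these samples.

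GADD45 proteins have no enzymatic activity and act by binding other proteins. They bind and activate the kinase MTK1 (MAP3K4) at the head of the p38 and JNK stress cascades, they bind CDK1 and hinder its complex with cyclin B1 at the G2/M boundary, and they bind PCNA and the CDK inhibitor p21. GADD45A is a DNA damage-inducible gene that BRCA1, FOXO3 and ATF4 can induce, whereas MYC represses it. GADD45B is induced by NF-kB and by TGF-beta signaling through SMAD proteins. GADD45GIP1, also called CRIF1, is a component of the large subunit of the mitochondrial ribosome that sits at the exit of the peptide tunnel, and it is no GADD45 protein itself despite its name.

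All 4 members were expressed in every sample. After BCT treatment GADD45A rose about 4.05-fold, GADD45G 4.37-fold and GADD45B 2.12-fold as ratios of mean FPKM, and GADD45GIP1 stood at 1.39 times its level with DMSO. FPKM scales the sequenced fragments of a gene to its transcript length and to the size of the library. A gene was called when its log2 fold change, on log2(FPKM + 0.1), was beyond 0.85 in either direction with a false discovery rate (FDR) under 0.05 in limma across 12729 genes. By this rule GADD45A, GADD45B and GADD45G were called higher and GADD45GIP1 was not, because its fold change was under the threshold. Of all tested genes 13.9% were called higher and 17.8% lower. In all 4 members the 3 BCT samples lay above the 3 DMSO samples, which was also so in 41.0% of all tested genes and is therefore no mark of these 4.

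The promoters of GADD45B and GADD45G, both called higher but by unequal amounts, are shown with that of GADD45GIP1 for comparison. Each is given as the 250 bases before the gene start in RefSeq on build GRCh38.p14. Capitals mark the matches to the letters searched, on either strand. GADD45B lies on the plus strand with its promoter at chr19:2475877-2476126, GADD45G on the plus strand at chr9:89604762-89605011, and GADD45GIP1 on the minus strand at chr19:12957224-12957473, read 5′ to 3′ along the gene.
GADD45B: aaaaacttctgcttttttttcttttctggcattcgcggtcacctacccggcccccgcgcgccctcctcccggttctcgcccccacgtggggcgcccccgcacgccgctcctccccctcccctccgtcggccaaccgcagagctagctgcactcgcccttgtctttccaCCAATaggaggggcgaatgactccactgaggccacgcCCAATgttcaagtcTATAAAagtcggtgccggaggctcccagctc
GADD45G: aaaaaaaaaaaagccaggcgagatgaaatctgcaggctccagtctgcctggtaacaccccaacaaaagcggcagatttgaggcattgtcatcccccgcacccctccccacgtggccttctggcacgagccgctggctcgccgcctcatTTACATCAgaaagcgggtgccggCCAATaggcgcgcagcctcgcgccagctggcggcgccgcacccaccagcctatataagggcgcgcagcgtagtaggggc
GADD45GIP1: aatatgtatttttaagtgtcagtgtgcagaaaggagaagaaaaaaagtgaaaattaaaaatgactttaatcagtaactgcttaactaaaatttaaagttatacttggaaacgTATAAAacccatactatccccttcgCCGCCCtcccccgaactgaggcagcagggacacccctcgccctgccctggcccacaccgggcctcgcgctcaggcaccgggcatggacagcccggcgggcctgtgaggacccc

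The letters searched were CCAAT (the box bound by NF-Y), TGATGNAA (an element of the C/EBP-ATF type), TGANTCA (for AP-1 factors), TGACGTCA (the cyclic AMP response element, or CRE), CCGCCC (a GC box), TATAAA (the core of a TATA element) and an NF-kB element. Positions are counted back from the gene start, with -1 as the last base before it. GADD45B held CCAAT at -82 and at -45, and TATAAA at -31. GADD45G held CCAAT at -79 and, on the opposite strand, TGATGNAA at -102. GADD45GIP1 held TATAAA at -138 and CCGCCC at -113, and no CCAAT in this window. Among 27305 RefSeq promoters cut to the same length, 33.0% held CCAAT, 11.1% TATAAA, 42.3% CCGCCC and 3.19% TGATGNAA. The letters for AP-1 (6.60% of promoters), CRE (1.77%) and NF-kB (1.27%) did not occur in these 3 windows. A match of letters is a description and not a measured binding site. For GADD45A no promoter is shown, because the RefSeq promoters used held no entry for it.

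GADD45A, the member best known for its induction by DNA damage, lies on the plus strand of chromosome 1 from 68150860 to 68154021 (hg19), and its canonical transcript has 4 exons. The DMSO samples had 14.5, 13.6 and 12.9 FPKM, and the BCT samples had 46.5, 63.7 and 55.9 FPKM. The lowest BCT sample, replicate 1, was thus well above the highest DMSO sample. The mean rose from 13.7 ± 0.85 to 55.4 ± 8.63 FPKM (SD, n = 3 each). On the log2 scale the change was 2.001 ± 0.11 (standard error, 95% interval 1.75 to 2.25), at an adjusted p of 1.3e-06 by limma. GADD45A was at rank 271 of the 12729 genes ordered from the largest rise. In level it moved from percentile 54.1 of tested genes with DMSO to percentile 86.9 with BCT.

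GADD45G, a member known as a cytokine-responsive gene that is silenced in many tumors, lies on the plus strand of chromosome 9 from 92219927 to 92221469. Its values were 19.2, 17.7 and 19.5 FPKM with DMSO and 79.5, 86.5 and 80.0 FPKM with BCT. It had both the highest level and the tightest BCT samples of the paralogs relative to their mean. The mean rose from 18.8 ± 0.924 to 82.0 ± 3.91 FPKM (SD, n = 3 each). On the log2 scale the change was 2.12 ± 0.059 (standard error, 95% interval 1.99 to 2.26), at an adjusted p of 1.6e-07 by limma. This placed GADD45G at rank 233 for the rise, and moved it from percentile 62.9 to percentile 91.6 for level.

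GADD45B, the member best known as an NF-kB target that binds the JNK kinase MKK7, lies on the plus strand of chromosome 19 from 2476123 to 2478257. Its values were 15.98, 14.99 and 15.14 FPKM with DMSO and 29.8, 37.1 and 30.7 FPKM with BCT. BCT replicate 2 stood above the other BCT samples, and no BCT sample reached down to the DMSO range. The mean rose from 15.4 ± 0.531 to 32.5 ± 4.004 FPKM (SD, n = 3 each). On the log2 scale the change was 1.07 ± 0.085 (standard error, 95% interval 0.87 to 1.27), at an adjusted p of 6.8e-06 by limma. It ranked 1203 for the rise. The lower end of its interval was close to the threshold, and a test of whether the change exceeded 0.85 gave an adjusted p of 0.079 (limma's treat), which did not pass.

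GADD45GIP1 lies on the minus strand of chromosome 19 from 13064970 to 13068068, and its canonical transcript has 2 exons. Its values were 127.9, 117.2 and 126.1 FPKM with DMSO and 175.6, 175.9 and 164.3 FPKM with BCT. It was the most abundant member by far, and its groups did not overlap although the distance between them was small. The mean was 123.8 ± 5.74 FPKM with DMSO and 171.9 ± 6.63 FPKM with BCT (SD, n = 3 each). On the log2 scale the change was 0.47 ± 0.055 (standard error, 95% interval 0.35 to 0.60), at an adjusted p of 5.7e-05 by limma. That difference passed the FDR, as 10450 of the tested genes did, but it was not called.

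**Figure D1:**
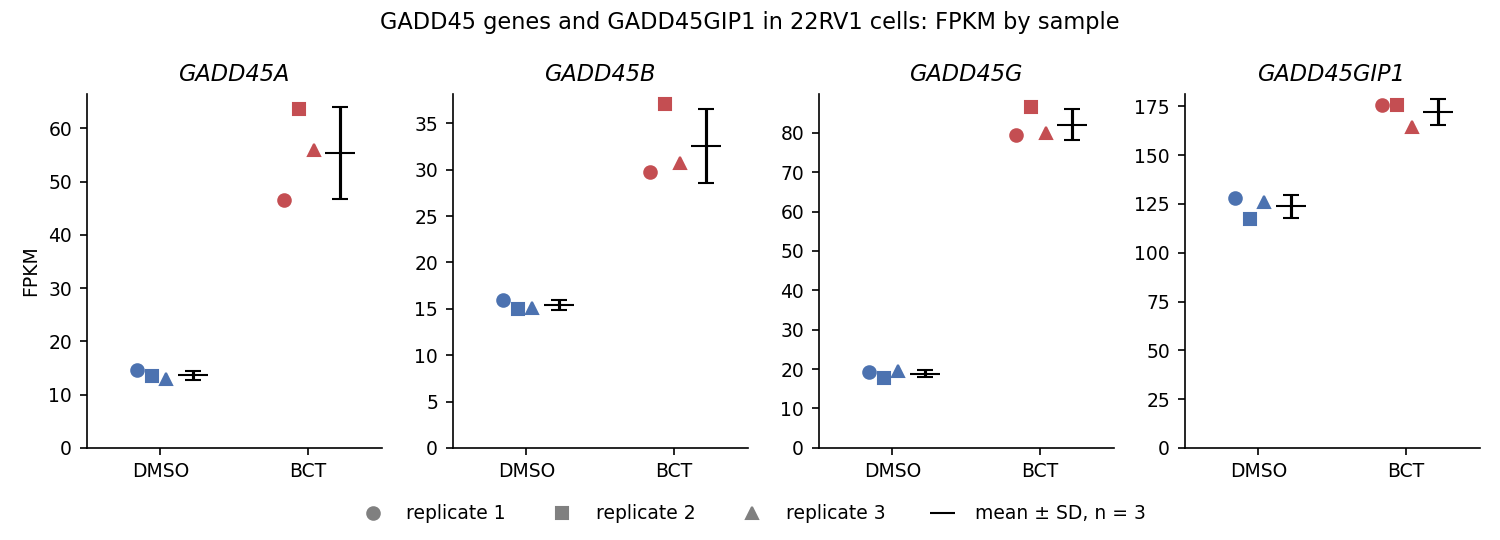
FPKM (y axis, from 0, a separate scale in each panel) of each member in the 3 DMSO and 3 BCT samples of 22RV1 cells, with point shapes for the replicate number and a bar for mean ± SD. The BCT samples sit above the DMSO samples in each panel, from 46.5 to 63.7 against 12.9 to 14.5 FPKM for GADD45A and from 164.3 to 175.9 against 117.2 to 127.9 FPKM for GADD45GIP1.

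The position of the members within the transcriptome follows from the same fit. Over all tested genes the median stood at a log2 fold change of -0.04, and 6134 of them were positive. GADD45G and GADD45A were at percentiles 98.2 and 97.9 of the log2 fold changes, GADD45B at 90.6 and GADD45GIP1 at 73.5.

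**Figure D2:**
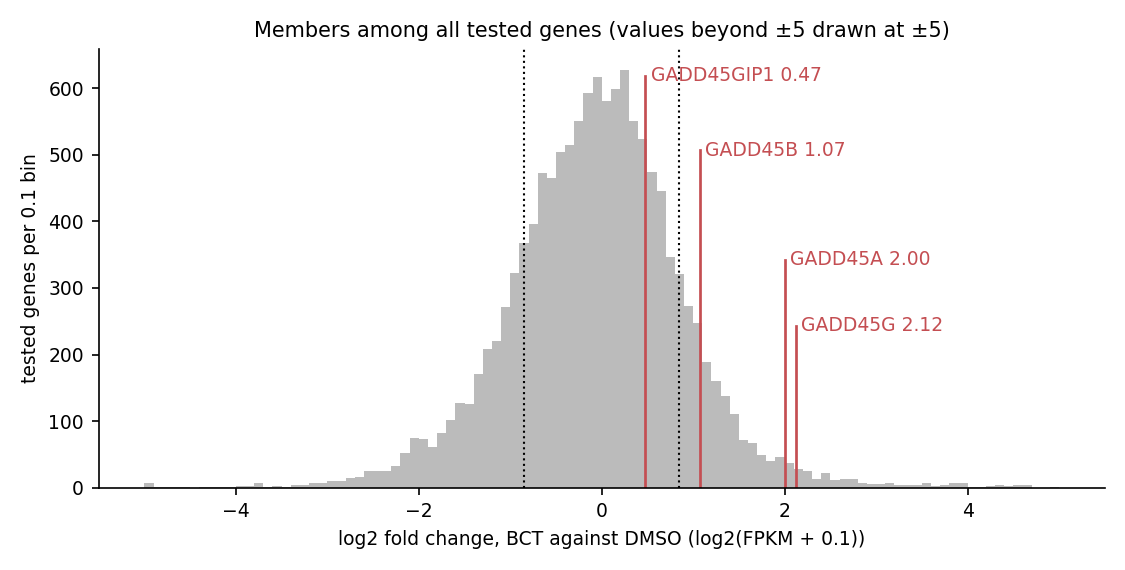
Histogram of the log2 fold change, BCT against DMSO, of the 12729 tested genes (x axis, on log2(FPKM + 0.1); y axis, genes per bin), with a red line at each member and dotted lines at the threshold of 0.85. GADD45A (2.001) and GADD45G (2.12) lie in the upper tail, GADD45B (1.07) just past the threshold and GADD45GIP1 (0.47) before it.

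FPKM is per length, so the levels of the members can be ordered. With DMSO the order was GADD45A, GADD45B, GADD45G and GADD45GIP1 from low to high, and the samples of neighbours in that order did not overlap. With BCT the order was GADD45B, GADD45A, GADD45G and GADD45GIP1, again without overlap, so GADD45A and GADD45B had changed places. The summed FPKM of the 3 GADD45 paralogs went from 47.8 ± 1.73 with DMSO to 169.9 ± 16.1 with BCT (SD, n = 3 each), a ratio of 3.55. GADD45B contributed 31.9% to 32.4% of it in DMSO samples and 18.4% to 19.8% in BCT samples. The share of GADD45G was 38.3% to 41.0% and then 46.2% to 51.1%, while that of GADD45A was 27.1% to 29.3% and then 29.8% to 34.0%.

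Ratios between members within a sample are left almost unchanged by 1 scaling factor for the whole sample, though not by quantile normalization, and the difference in response between genes was tested on them over 6 pairs. The log2 ratio of GADD45A to GADD45B was -0.13, -0.14 and -0.23 in the DMSO samples and 0.64, 0.78 and 0.86 in the BCT samples. GADD45A was therefore the lower of the pair in every DMSO sample and the higher in every BCT sample. The difference between groups was 0.93, with an exact two-sided permutation p of 0.1, the smallest that 3 samples against 3 can give, or 0.12 after Benjamini-Hochberg adjustment. The ratio of GADD45B to GADD45G fell by 1.05 on the log2 scale, again with no overlap and the same exact p of 0.1. The ratio of GADD45A to GADD45G was -0.46 ± 0.118 with DMSO and -0.58 ± 0.174 with BCT (SD, n = 3 each), and the samples overlapped. Their difference of -0.12 had an exact permutation p of 0.5, so no unequal response of GADD45A and GADD45G was detectable with these samples. Against GADD45GIP1, the log2 ratio shifted upward by 1.65 for GADD45G, 1.53 for GADD45A and 0.60 for GADD45B, each without overlap and each at the exact p of 0.1. With quantile normalization the log2 fold changes were 1.08 for GADD45B and 0.73 for GADD45GIP1, so these members stood closer together than as deposited (1.07 and 0.47). None of the 6 comparisons could pass a threshold of 0.05 in this design.

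**Figure D3:**
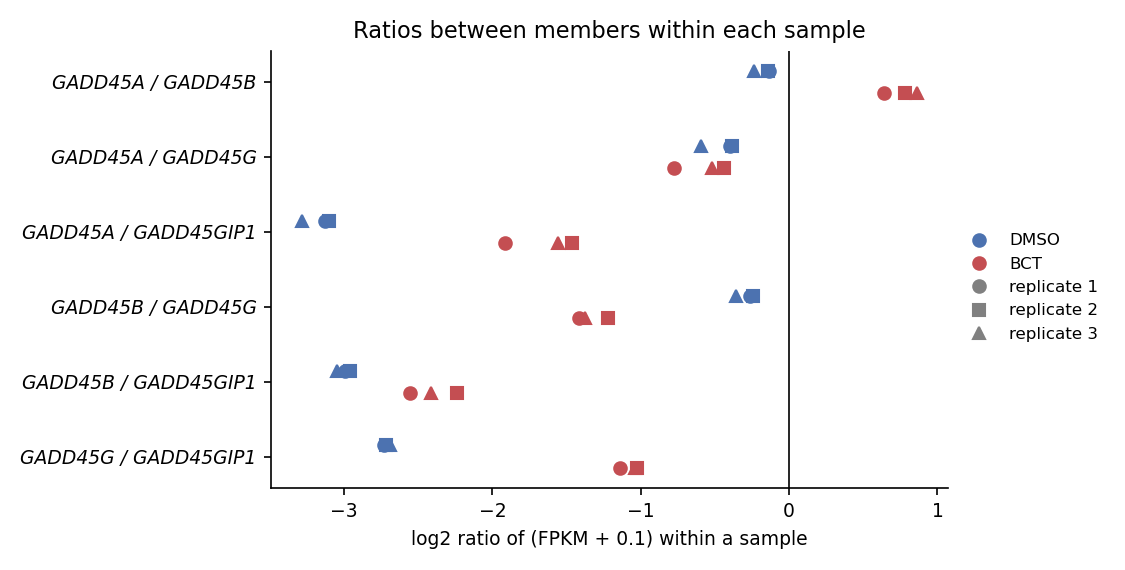
Log2 ratio of (FPKM + 0.1) between each pair of members within each sample (x axis), one row per pair (y axis), in blue for DMSO and red for BCT, with point shapes for the replicate number. The groups are apart in 5 of the 6 pairs and overlap for GADD45A against GADD45G, and GADD45A against GADD45B crosses 0.

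The spread among BCT samples was not the same for each member. BCT replicate 1 was the lowest BCT sample for GADD45A, GADD45B and GADD45G but not for GADD45GIP1, and BCT replicate 2 was the highest for all 4. On the first principal component of all tested genes, which held 71.96% of the variance, BCT replicate 1 lay at 40.2 and the other BCT samples at 65.0 and 63.8, with the DMSO samples between -57.7 and -54.3. With each sample left out in turn the log2 fold change ranged from 1.89 to 2.12 for GADD45A, from 0.97 to 1.13 for GADD45B, from 2.08 to 2.15 for GADD45G and from 0.44 to 0.51 for GADD45GIP1, and no call was lost or gained.

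The values were used as the authors deposited them, and other scalings bear on how far each member stood from the threshold. Rescaling every sample to the same FPKM sum raised the median of all tested genes to 0.72, and the members were then at 2.77 (GADD45A), 1.84 (GADD45B), 2.89 (GADD45G) and 1.24 (GADD45GIP1), the last now past the threshold. Relative to the median of all genes they were at 2.04, 1.11, 2.16 and 0.51 as deposited and at 2.05, 1.12, 2.17 and 0.52 after that rescaling. A single factor per sample shifts the log2 fold changes of all genes almost alike, so this closeness follows by construction. Each member kept its direction under all 21 alternatives. The samples differed in the share of the FPKM sum held by the single gene MIR6087, at 43.5% to 55.3% with DMSO and 31.7% to 32.5% with BCT, and which scaling is right was not tested.

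**Figure D4:**
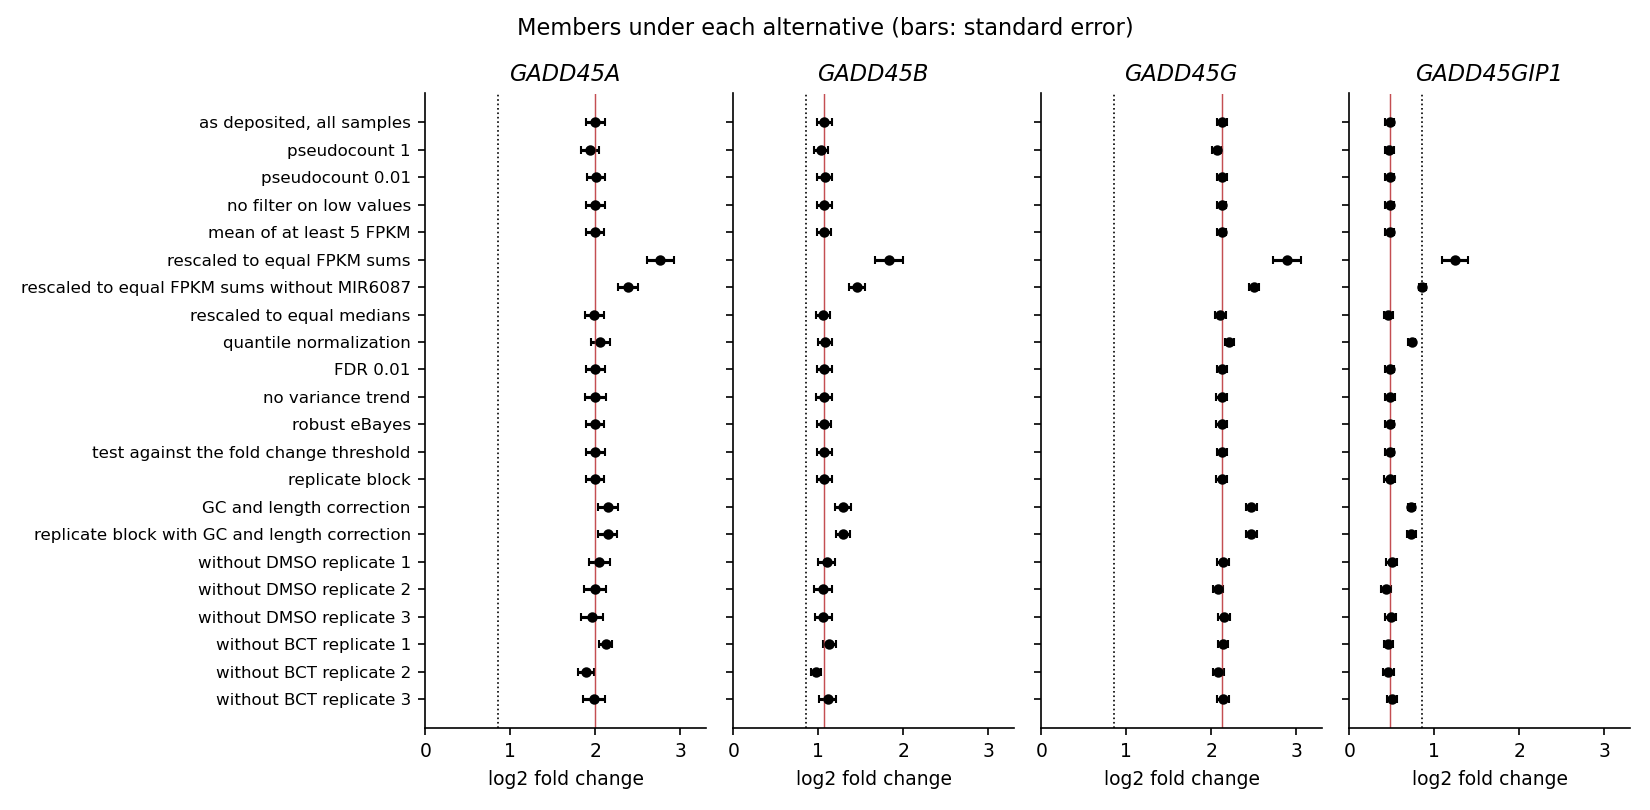
Log2 fold change of each member (x axis, bars for the standard error) under each processing alternative (y axis), with the dotted line at the threshold of 0.85 and the red line at the value as deposited. GADD45A and GADD45G stay between 1.89 and 2.89, GADD45B between 0.97 and 1.84, and GADD45GIP1 passes the threshold under 2 rescalings only.

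Transcripts of the paralogs had only short stretches in common. The longest stretch shared by transcripts of GADD45A, GADD45B and GADD45G was 18 bases, between GADD45A and GADD45G, and none of the 3 shared a stretch of 50 bases with a transcript of any other gene in GENCODE. The library kit does not mark the strand.

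The proteins through which GADD45 is known to act were read from lists written from general knowledge, each given by its counts and its median. Of 8 direct partners, 1 was called higher and 3 lower, with a median log2 fold change of -0.26. CDKN1A, which encodes p21, had 49.2, 51.3 and 47.2 FPKM with DMSO and 174.9, 202.2 and 166.0 FPKM with BCT. This rise of 1.87 on the log2 scale was close in size to those of GADD45A and GADD45G. PCNA, the sliding clamp of DNA replication, had 324.9, 304.3 and 300.8 FPKM with DMSO and 84.7, 70.7 and 75.9 FPKM with BCT, a log2 fold change of -2.01. NPM1, a nucleolar chaperone, was at -1.02 and CDK1 at -0.90, both called lower. CCNB1 at -0.47, MAP2K7 at -0.05, AURKA at 0.02 and MAP3K4 at 0.47 were not called. The MTK1 gene MAP3K4 had 7.44, 7.81 and 7.78 FPKM with DMSO and 10.1, 10.8 and 11.2 FPKM with BCT. Its BCT samples all lay above its DMSO samples, as in 41.0% of all tested genes.

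In the kinase cascade below GADD45, 14 of 15 genes were tested, with 1 called higher, 3 called lower and a median of -0.06. MAP2K3, a p38-activating kinase, rose by 1.56 on the log2 scale, and its mean FPKM was 35.5 ± 0.743 with DMSO and 105.1 ± 11.3 with BCT (SD, n = 3 each). MAP2K6, the other main activator of p38, went the opposite way, at 5.76 ± 0.456 FPKM with DMSO and 1.10 ± 0.18 with BCT (-2.29 on the log2 scale). The p38 isoforms MAPK12 (-1.10) and MAPK11 (-1.05) were called lower, while the isoforms MAPK14 (-0.07) and MAPK13 (0.30) were not called. These are mRNA levels, and kinase activity was not measured.

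All 8 genes of CDK1 and cyclin B control were below 0, at a median of -0.57 on the log2 scale, and 2 were called lower. These were PKMYT1 at -1.09, a kinase that inhibits CDK1, and CDK1 at -0.90. WEE1, a second inhibitory kinase, stood at -0.81, and CCNB2 at -0.62, CDC25C at -0.52, CCNB1 at -0.47, CDC25B at -0.35 and PLK1 at -0.34 were likewise short of the threshold. Rescaled to equal sums the median of this list turned to 0.20, still below the 0.72 of all genes, and CDK1 and PKMYT1 lost their calls.

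GADD45 proteins also work with DNA repair and active demethylation enzymes. Of 12 such genes 11 were tested, with 2 called higher, 1 called lower and a median of 0.29. ERCC4, a subunit of a repair endonuclease, rose by 1.77 on the log2 scale, with 2.82 ± 0.274 FPKM in DMSO and 9.90 ± 1.18 in BCT samples. TET2, a dioxygenase of 5-methylcytosine, rose by 1.56 on the log2 scale. APEX1, the main abasic site endonuclease, was called lower at -1.04.

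Among 17 transcription factors known to act on GADD45 genes, 6 were called higher and 4 lower, with a median of 0.40. EGR1, an immediate-early factor, had 7.59, 7.99 and 7.94 FPKM with DMSO and 115.7, 195.1 and 146.3 FPKM with BCT, a log2 fold change of 4.23. MYC, the repressor of GADD45A, had 117.7, 118.0 and 129.9 FPKM with DMSO and 30.9, 23.1 and 27.0 FPKM with BCT, a log2 fold change of -2.18. BRCA1, an activator of GADD45A, was called lower at -1.72, and ATF4, the effector of the integrated stress response, was called higher at 1.70. Factors listed as activators thus stood among both the genes called higher and those called lower. The other genes that carry the name GADD, DDIT3 (GADD153) and PPP1R15A (GADD34), were both called higher, at 1.92 and 3.46. DDIT3, a C/EBP family factor, had 74.4, 77.1 and 76.6 FPKM with DMSO and 273.9, 322.0 and 270.8 FPKM with BCT. PPP1R15A, which directs the removal of phosphate from eIF2-alpha, had 17.8, 16.7 and 18.3 FPKM with DMSO and 151.2, 233.6 and 205.7 FPKM with BCT.

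GADD45GIP1 was set beside the genes it works with in mitochondria. Of 52 matched genes of the large mitochondrial ribosomal subunit, a list by symbol that takes in the pseudogenes MRPL42P5 and MRPL45P2 and the antisense RNA MRPL23-AS1, 50 were tested. Their median was -0.01, with 25 positive and 25 negative values, 6 called higher and 2 called lower. ICT1, a peptide release factor built into the subunit, was highest at 1.29, followed by MRPL45P2 at 1.23, whose reads could be shared with its parent gene, and MRPL9 at 1.14. MRPL34 was lowest at -1.19. GADD45GIP1 at 0.47 lay inside that range. Of the genes of membrane insertion and the tunnel exit, 5 of 6 listed symbols were matched, and OXA1L, the insertase of the inner membrane, was called lower, from 71.5 ± 1.35 to 34.9 ± 1.20 FPKM. MRPL22 was called higher at 0.96, and MRPL45 (0.64), MRPL24 (-0.38) and MRPL23 (-0.73) were not called.

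**Figure D5:**
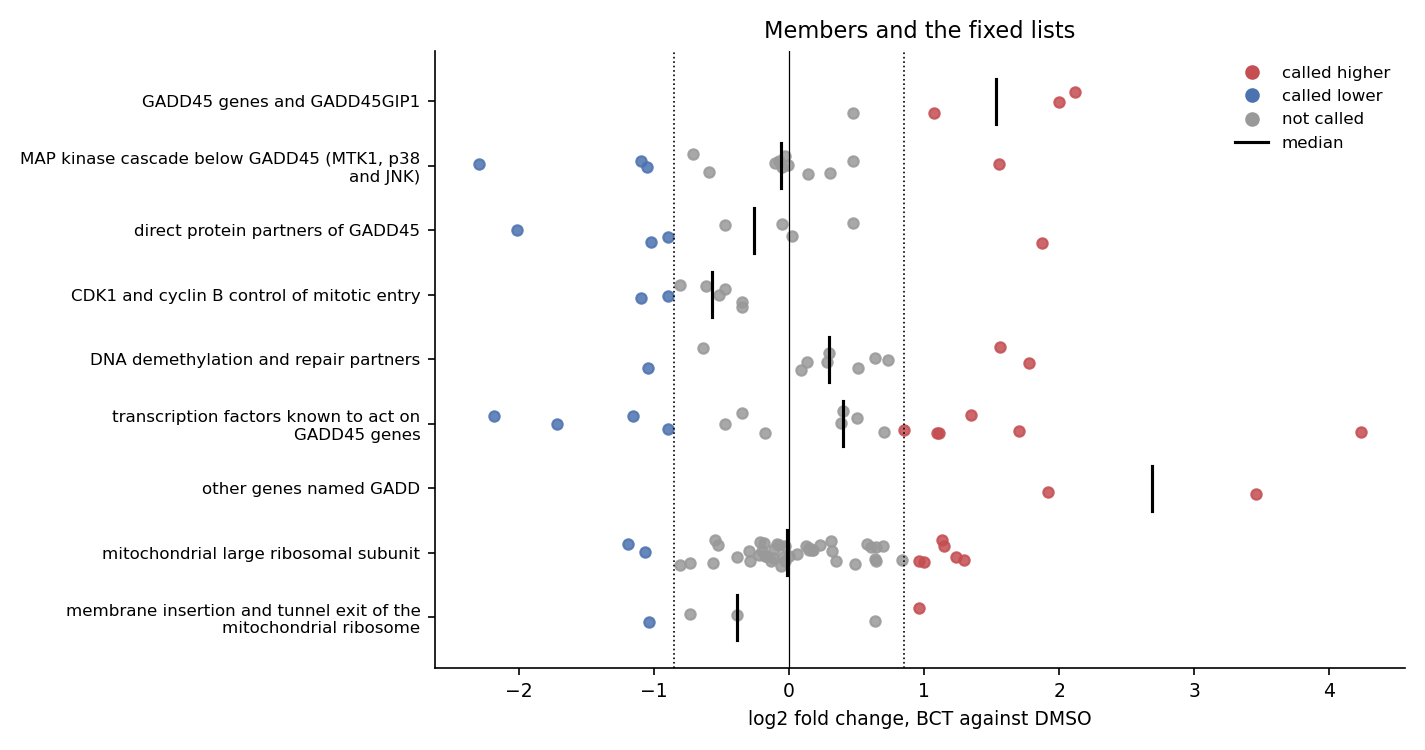
Log2 fold change, BCT against DMSO (x axis), of the members and of each list (y axis), one point per tested gene, in red where called higher, blue where called lower and grey where not called, with a black line at the median and dotted lines at the threshold of 0.85. The GADD45 paralogs lie to the right (1.07 to 2.12), the CDK1 and cyclin B genes all lie left of 0 as deposited (their median turned positive with equal sums), and the lists of the kinase cascade and the mitochondrial subunit have medians near 0 (-0.06 and -0.01).

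Each called gene named from these lists had an adjusted p of at most 1.8e-05 by limma, the value of MAPK11. Rescaled to equal sums, with or without MIR6087, the calls of MAPK11, MAPK12, NPM1, CDK1, PKMYT1, APEX1, MRPL34 and OXA1L were lost, and MAP3K4 and MRPL45 were called higher. With MIR6087 kept in those sums the median of each list was above 0, for example 0.51 for the direct partners, where all genes stood at 0.72. With that rescaling the list medians relative to all genes were -0.21 for the direct partners, -0.52 for CDK1 and cyclin B control and 0.45 for the transcription factors, against -0.22, -0.53 and 0.44 as deposited. Such closeness is again built into a rescaling by a single factor per sample.

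For each member the 3 genes of most similar profile were found by the root mean square difference of their centred log2 values over the 6 samples. For GADD45G these were PHLDA3 (difference 0.028), PPP2R5B (0.046) and BTG2 (0.056). PHLDA3, an AKT inhibitor, had 15.6, 14.2 and 15.3 FPKM with DMSO and 64.0, 70.4 and 67.0 FPKM with BCT. BTG2 encodes an antiproliferative factor. For GADD45A they were WASH1 (0.041), ZNF274 (0.042) and LNX1 (0.053), and for GADD45B CCDC144NL (0.035), FAM206A (0.041) and the AP-1 gene JUNB (0.042). For GADD45GIP1 they were ILK (0.021), C12orf45 (0.029) and OARD1 (0.030), and none of these 3 was called. The difference between groups weighs heavily in such a profile, so genes of a similar log2 fold change come out nearest. WASH1 at 2.03 and ZNF274 at 1.97, beside GADD45A at 2.001, are examples. Shared regulation was not tested.

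The labelled cell type was checked against marker genes. All 8 markers of luminal prostate cells were expressed, among them KRT8 and KRT18, and their summed FPKM was 914.4 to 923.4 with DMSO and 1890 to 2049 with BCT. The 3 basal markers summed to at most 0.44 FPKM and the 3 blood markers to at most 1.60 FPKM in any sample. The 3 stromal markers summed to 1.499 to 1.592 FPKM with DMSO and 5.19 to 6.41 with BCT, most of it COL1A1, which was called higher, while COL1A2 and DCN were at or near 0. The part of these markers in the members' values was not tested. In bulk RNA a change in the share of cells that express a gene cannot be told apart from a change in RNA per cell. The FPKM values hold no counts. The most common ratio among low values gave depths relative to DMSO replicate 1 of 0.877 to 1 with DMSO and 1.05 to 1.14 with BCT.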

How the data were processed

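RNA from 6 samples of 22RV1 cells was sequenced. The authors trimmed reads with Trimmomatic (0.38 in the submitters' processing notes), mapped them to hg19/GRCh37 by HISAT2 and used StringTie to obtain the deposited FPKM values, 1 for each of 26255 genes and sample. The processing notes also name HTSeq and CASAVA. The gene annotation and the gene-level test are not given in the sources used here.

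From the deposited FPKM values, log2(FPKM + 0.1) was computed for the 12729 genes whose mean over all samples reached 1 FPKM. These were tested in R 4.3.3 by limma 3.58.1, with eBayes, a variance trend and Benjamini-Hochberg adjustment over all of them, and adjusted p-values in the text are from this fit. No count test was run, as counts were not analysed here. The FPKM values do not state the depth of each sample, and the relative depths given with the markers are only estimates from ratios of low values. Ratios between members were tested with an exact permutation test. The members and lists were chosen with earlier results of these data known. Named genes are the members, all genes of lists of up to 8, the 4 called genes of largest change in longer lists, and the 3 nearest profiles of each member. MAPK13, MAPK14, MRPL42P5, MRPL23-AS1 and MIR6087 were named after their values were seen. Alternatives covered the pseudocount, filter, scaling, FDR, variance model, a test against the threshold, replicate block, each sample left out and, added after seeing the data, a loess correction (span 0.5) for GC content and transcript length from GENCODE, for 91.8% of tested genes. Gene positions are those of the deposited annotation with 1 added to the start. Promoters come from RefSeq. Same-numbered DMSO and BCT samples were not treated as pairs, for the reason given with the alternatives.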

Additional observations from a re-analysis of the deposited data

How the results depend on the processing

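Under 21 alternatives for each member, GADD45A and GADD45G kept their direction and their call in all, and GADD45B in all but the test against the fold change threshold (log2 fold change 1.07, adjusted p = 0.079 with limma's treat). GADD45GIP1 passed the threshold after rescaling to equal FPKM sums (1.24) and to equal sums without MIR6087 (0.86), where the median over all genes was 0.72 and 0.34. With the GC and length correction the members were at 2.15, 1.29, 2.47 and 0.73 for GADD45A, GADD45B, GADD45G and GADD45GIP1. The 4027 called genes (1764 higher, 2263 lower, 56.2% lower) became 6282 (5614 higher, 668 lower, 10.6% lower) with equal sums, 3370 higher and 1208 lower (26.4% lower) with equal sums without MIR6087, and 2425 (1033 higher, 1392 lower) with the test against the threshold. Genes called higher numbered 2657 when no filter was used and 1150 when the mean had to reach 5 FPKM. Apart from what each alternative changes by construction, the cause was not tested.

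The replicate numbers are shared by both groups, but same-numbered samples correlated at 0.116, 0.033 and 0.034 in their deviations from the group means, so they were not taken as pairs. With the replicate block 4033 genes were called, against 4027 without it. Each replicate number occurs once per group, so the block cannot alter a log2 fold change, only its standard error and p-value. The members therefore stayed at 2.001 (GADD45A), 1.07 (GADD45B), 2.12 (GADD45G) and 0.47 (GADD45GIP1) by construction. No member or named gene changed its call. The 79 results compared also held counts of calls, which stayed within the tolerance set for them, and list medians, which the block leaves unchanged. For the named genes outside the members, 956 values stayed on their side of the threshold, 31 lost a call, 10 gained 1 and none turned direction with a call. CDK1 lost its call without BCT replicate 3 (-0.84). Calls were also lost for CDK1, NPM1 and APEX1 with quantile normalization, for MAPK11, MAPK12 and PKMYT1 with the GC and length correction, for MAPK11, CDK1, MRPL22 and CCDC144NL with the test against the threshold, and for CCDC144NL with a pseudocount of 1. Alternatives meant for count tables were not run, since the files hold FPKM.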
